A study of Rattus norvegicus with 12 samples.

Results

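The genes described here move calcium in and out of the heart muscle cell and its internal store. The set holds 10 genes: Cacna1c, Cacnb2 and Cacna2d1 of the L-type calcium channel, the release channel gene Ryr2 with its partners Trdn and Casq2, the store's pump gene Atp2a2 with its inhibitor gene Pln, the exchanger gene Slc8a1 and the kinase gene Camk2d. They are taken by name. On the rat oligonucleotide array they had 23 probes of 41012 non-control probes, 20 of which could be tested in the left ventricle, where they represented 9 of the 10 genes.

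Male Sprague-Dawley (CD) rats, 10 weeks old at the start, were dosed by mouth for 10 days with amiodarone at 300 mg/kg per day. Amiodarone is an antiarrhythmic drug that blocks several cardiac ion channels. The other rats received its vehicle, 1% methylcellulose. RNA of the left ventricle and of whole blood was hybridised, 1 single-colour array per pool, with 3 amiodarone pools and 3 vehicle pools in each tissue, and the age label of the pools was 11 weeks. Heart and blood RNA came from different extraction kits, and the labels do not give the animals of a pool or say whether heart and blood pools share animals.

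In a heart muscle cell, an action potential opens L-type channels, and the calcium that enters triggers ryanodine receptors to release more from the sarcoplasmic reticulum. Relaxation follows when the SERCA pump, held back by phospholamban, refills the store and the sodium-calcium exchanger carries the rest out of the cell. Triadin ties the release channel to calsequestrin, the store's calcium buffer. Triadin is made in several forms that share their first exons and differ at the 3′ end, with long forms best known from skeletal muscle and a shorter form that prevails in the heart.

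Taking 1 probe per gene, none of these genes passed the test in the left ventricle of amiodarone-treated rats. Probe by probe, a downstream triadin probe was 3.46-fold higher in amiodarone pools, while the brightest probe, which lies upstream of it, was at 1.09-fold. A second, dim downstream probe also passed, but it entered the test through the amiodarone pools alone. These were 2 of 20 probes, beside 7.41% of all probes tested. Casq2, the calsequestrin gene, was at 0.599-fold with no overlap between the groups, but its adjusted p of 0.0775 missed the threshold of 0.05. After scaling, the channel genes Cacna1c and Cacnb2 had higher values in all amiodarone pools than in any vehicle pool, also without passing. Groups without overlap were common, with 18.8% of all features higher and 13.7% lower in this way. Values of 3 pools against 3 cannot reach p below 0.1 in an exact permutation test, so single genes rest on limma's moderated test, two-sided and adjusted by Benjamini-Hochberg over all features tested.

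The 3 triadin probes are shown because their readings part. All 3 lie on the minus strand of chromosome 1 in rat build rn4, so lower coordinates are downstream. A_44_P123550 lies at chr1:24906655-24906714, A_44_P421525 at chr1:24610932-24610991, and A_44_P191715 at chr1:24515267-24515326. The second was designed on a transcript that the array annotation calls triadin 51 kDa. A_44_P123550 and A_44_P191715 carry the accession NM_021666. The longest run of bases that any 2 of them share was 6, and no probe of the 10 genes shared a run of 16 bases with another non-control probe on the array. The probes are written here in lower case, 5′ to 3′.
Trdn A_44_P123550: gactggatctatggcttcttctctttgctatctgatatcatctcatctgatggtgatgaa
Trdn A_44_P421525: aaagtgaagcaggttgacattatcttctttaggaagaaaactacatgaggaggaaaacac
Trdn A_44_P191715: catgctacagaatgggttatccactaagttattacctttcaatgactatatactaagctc

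For the upstream probe A_44_P123550, the processed signal of Trdn was 19755, 18607 and 12743 in amiodarone pools 1, 2 and 3, against 14883, 21134 and 15032 in vehicle pools 1, 2 and 3. The groups overlapped. On the scale of the test, log2 signal relative to the array's 75th percentile, amiodarone exceeded vehicle by 0.13 (SE 0.21, adjusted p = 0.753), and the sign turned with quantile scaling and with none.

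A_44_P191715, which lies 391 kb downstream on the genome, read 345, 458 and 271 in amiodarone pools, against 86.1, 138 and 114 in vehicle pools. The lowest amiodarone pool stood well above the highest vehicle pool. This Trdn probe rose by 1.79 log2 units (SE 0.16, limma adjusted p = 0.0012), and it passed in all 17 settings tried, with values of 1.28 to 1.93 and adjusted p up to 0.0194. The difference was 1.93 on the slide that held 2 pools of each group and 1.51 on the slide that held 1 of each.

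A_44_P421525, 296 kb downstream, was dim. It read 23.8, 24.0 and 12.2 in amiodarone pools, all well above background, against 5.47, 12.9 and 6.21 in vehicle pools, of which 1 was. The lowest amiodarone signal fell just under the highest vehicle signal before scaling, and the groups separated after it. The fit gave 1.46 log2 units (SE 0.30, adjusted p = 0.0303), but the probe met the filter on dim signals only through the amiodarone pools, where it is high, so this call is no separate support. That call was met in 8 of 16 settings, with adjusted p up to 0.318 under normexp background correction, where the difference was 0.26. That correction adds an offset of 50, more than any reading of this probe, which draws its log2 differences toward zero. Leaving out 1 pool ended the call for vehicle pool 1 (adjusted p = 0.118), vehicle pool 3 (0.115), amiodarone pool 1 (0.0537) and amiodarone pool 2 (0.0917).

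A ratio of probes within an array is free of the scaling between arrays. The log2 ratio of A_44_P191715 to the upstream Trdn probe was -5.84, -5.35 and -5.56 in amiodarone pools and -7.43, -7.26 and -7.05 in vehicle pools, a difference of 1.67. The groups did not overlap. The exact two-sided permutation test gave p = 0.1, the smallest 3 pools against 3 allow, and 0.367 adjusted over the 11 such ratios of the 10 genes. The ratios were chosen after the probe values were seen and reuse the same readings, so this one is no separate support. It also does not tell which transcript changed. No Trdn probe was well above background on any blood array.

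**Figure D1:**
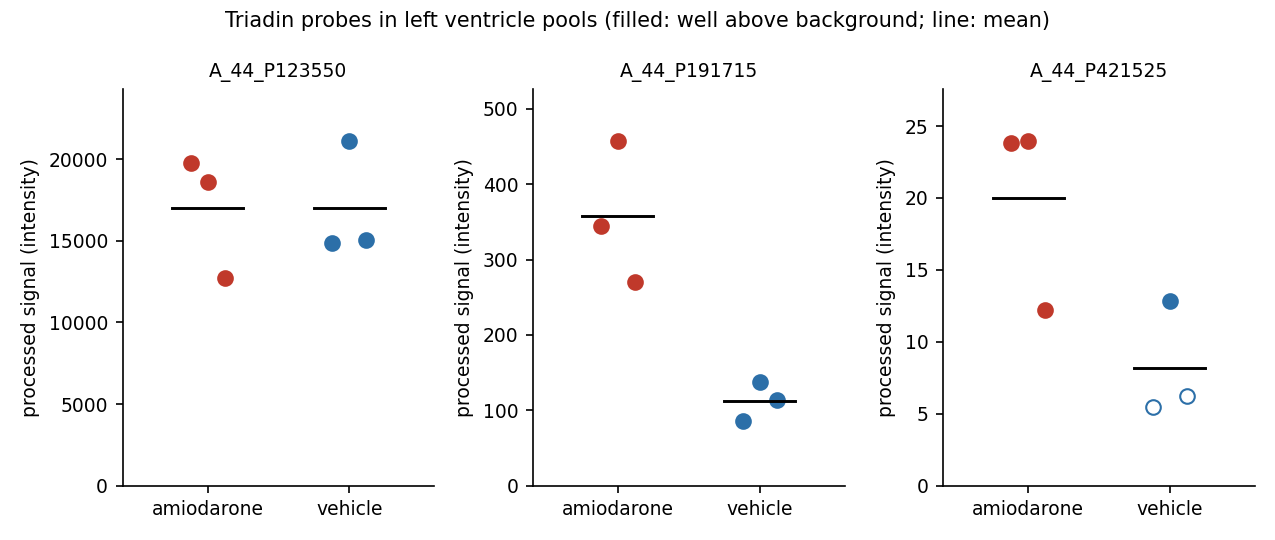
Processed signal (intensity, linear axis from 0) of the 3 triadin probes in left ventricle pools, amiodarone pools on the left and vehicle pools on the right of each panel. Filled points were well above background, open points were not, and lines are means of 3 pools. The groups overlap for A_44_P123550, while for A_44_P191715 the amiodarone pools read 271 to 458 and the vehicle pools 86.1 to 138.

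Taking 1 probe per gene, the brightest over all heart arrays, 0 of 9 tested genes passed the limma test, and 4 had an unadjusted p below 0.05. The share over all 17749 genes and unnamed probes tested was 8.37%, of which 4.23% were higher and 4.14% lower. Of the 9 differences, 5 were positive and 4 negative, with a median of 0.02, which was also the median over all features tested. The signs of Trdn, Atp2a2 and Cacna2d1, all within 0.13 of zero, turned under other scalings. With every probe as its own feature, 2 of 20 passed, both of Trdn and 1 of them tested only through the amiodarone pools, beside 7.41% of all 20502 probes, 3.65% higher and 3.76% lower. The 3 pools of each group did not overlap for 5 of the 9 genes, 3 higher and 2 lower, beside 32.4% of all features.

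**Figure D2:**
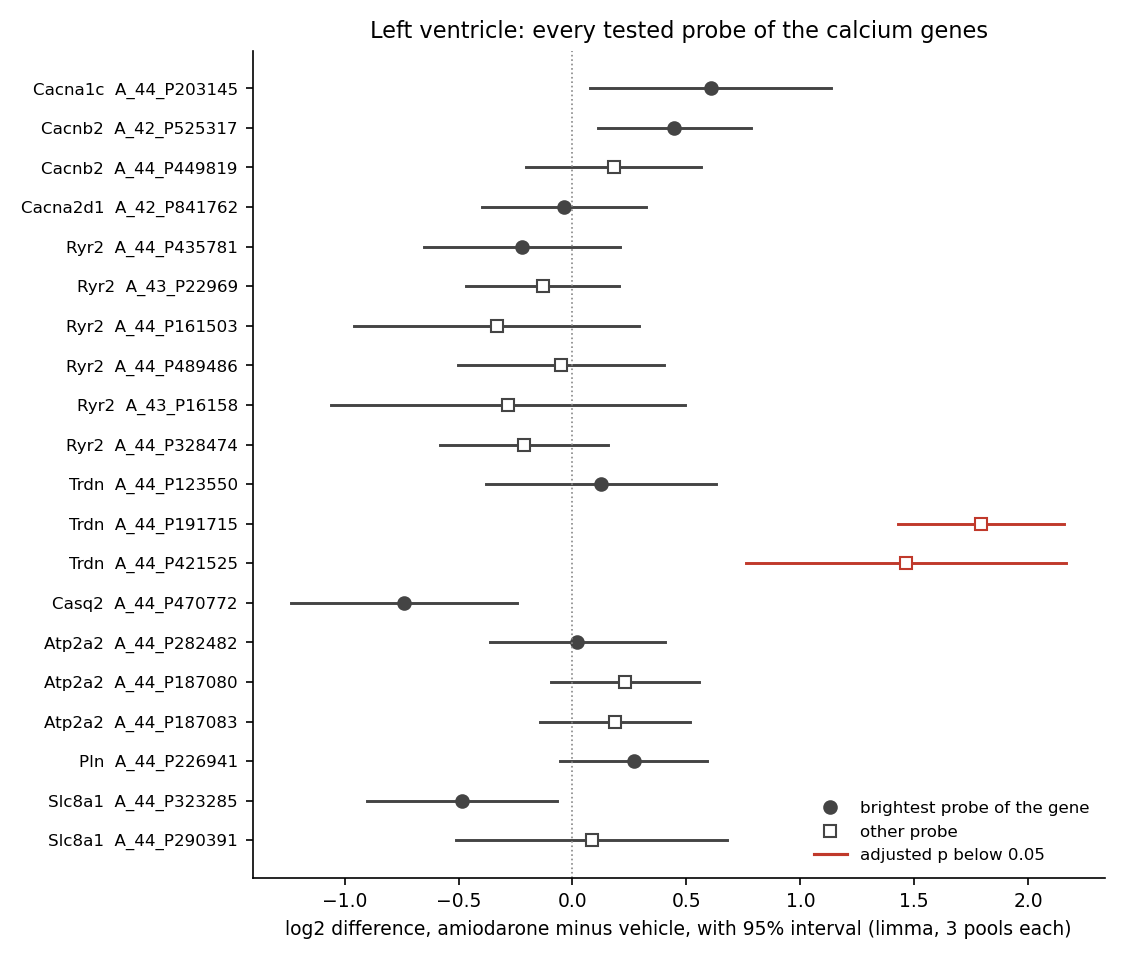
Log2 difference between amiodarone and vehicle left ventricle (x axis) for the 20 tested probes (y axis), each with its 95% interval from limma over 3 pools a group. Filled circles are the brightest probe of a gene, open squares the other probes, and red marks adjusted p below 0.05. The 2 red probes, at 1.79 and 1.46, both belong to Trdn, and the one at 1.46 was well above background on 1 of 3 vehicle arrays.

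Calcium entry. Cacna1c encodes the pore of the L-type channel. Its probe A_44_P203145 (chr4:154895974-154896033, minus strand), spotted 10 times on the array, read 902, 926 and 529 in amiodarone pools, against 490, 668 and 502 in vehicle pools. Relative to each array's 75th percentile, all amiodarone pools were higher than all vehicle pools. The log2 difference was 0.61 (SE 0.23, 95% interval 0.08 to 1.13, adjusted p = 0.150).

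The spots of that Cacna1c probe spread little within a heart array, with SDs of 0.04 to 0.07 log2 units, while the 3 amiodarone pools had an SD of 0.43. The difference was 0.74 on the slide with 2 pools of each group and 0.34 on the slide with 1 of each. Across 18 settings it stayed between 0.38 and 0.80 and passed in none. A second Cacna1c probe, A_44_P132903, was well above background on 2 of 3 arrays in each heart group and was not tested.

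Cacnb2 encodes the channel's beta subunit, which carries the pore to the membrane. A_42_P525317 read 2492, 3446 and 2161 in amiodarone pools, against 1615, 2640 and 2252 in vehicle pools. After scaling the groups did not overlap, with a log2 difference of 0.45 (SE 0.14, adjusted p = 0.102). The dim Cacnb2 probe A_44_P449819 stood at 0.18 (SE 0.17). Cacna2d1, the gene of the alpha2delta subunit, read 3854, 6052 and 4968 in amiodarone pools and 4961, 6155 and 5378 in vehicle pools. Those groups overlapped, at -0.04 (SE 0.15, adjusted p = 0.903).

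Release from the store. Ryr2 encodes the release channel and had 6 probes along the gene on chromosome 17. The brightest, A_44_P435781, read 5178, 7389 and 4036 in amiodarone pools, against 6032, 9223 and 5778 in vehicle pools. The groups overlapped, with a log2 difference of -0.22 (SE 0.18, adjusted p = 0.492). All 6 Ryr2 probes had differences below zero, -0.33 to -0.05, and none passed. They read 1 gene in the same pools and are not 6 separate tests.

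Casq2 encodes cardiac calsequestrin. Its only probe, A_44_P470772 (chr2:197238281-197238340, plus strand), read 6119, 7728 and 9130 in amiodarone pools, against 9816, 17121 and 15684 in vehicle pools. Every amiodarone pool was below every vehicle pool. The log2 difference was -0.74 (SE 0.21, 95% interval -1.23 to -0.25, adjusted p = 0.0775).

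The Casq2 difference was negative in all 18 settings, -0.94 to -0.59, and its call depended on the setting. It passed with normexp background correction (-0.76, adjusted p = 0.0133), with the slide as a block (-0.74, adjusted p = 0.0369) and without amiodarone pool 3 (-0.94, adjusted p = 0.0347). In the other settings the adjusted p reached 0.307. It was -0.85 on the slide with 2 pools of each group and -0.52 on the other.

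**Figure D3:**
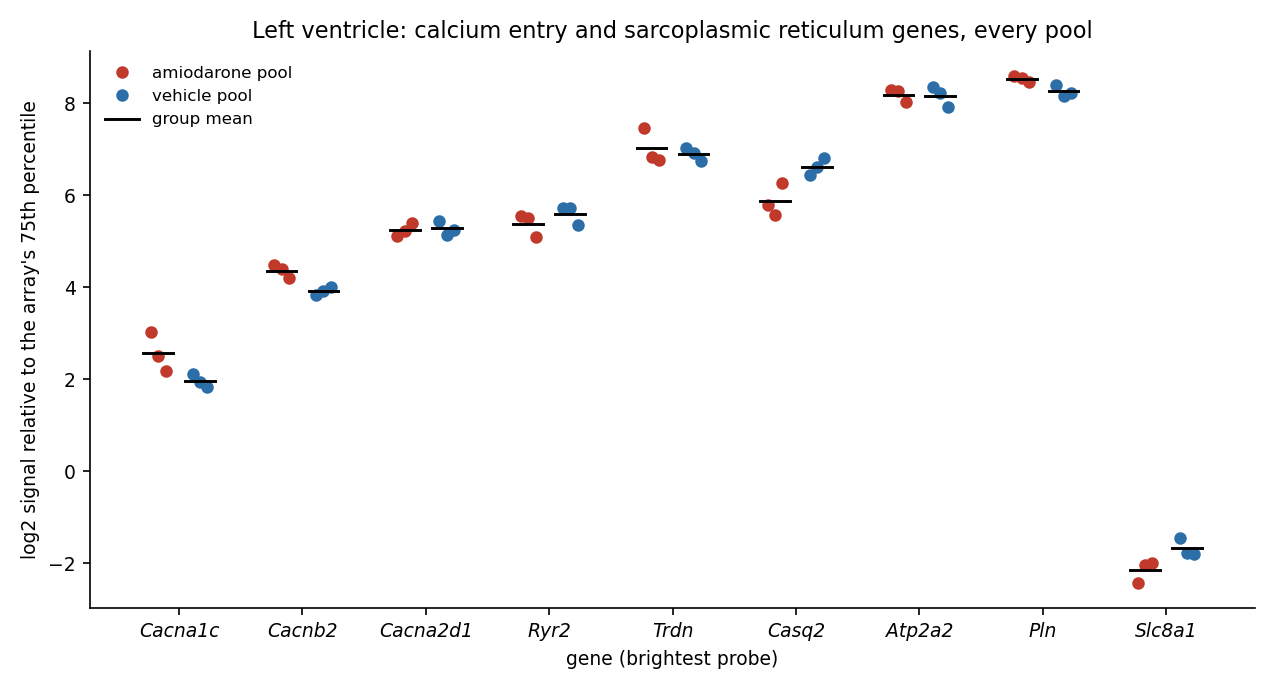
Log2 processed signal relative to the array's 75th percentile (y axis) of the brightest probe of the 9 tested genes (x axis) in each left ventricle pool, amiodarone pools in red on the left and vehicle pools in blue on the right. Black lines are means of 3 pools. Cacna1c, Cacnb2 and Pln have all amiodarone pools above all vehicle pools, and Casq2 and Slc8a1 have them below.

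Refilling and extrusion. Atp2a2 encodes the SERCA2 pump, and 3 probes on the plus strand of chromosome 12 read it. The brightest, A_44_P282482 (chr12:35315614-35315673), read 34562, 49980 and 30581 in amiodarone pools, against 36895, 52253 and 34322 in vehicle pools. The groups overlapped, at 0.02 (SE 0.16, 95% interval -0.36 to 0.40, adjusted p = 0.948).

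The other Atp2a2 probes lie upstream of it. A_44_P187080 (chr12:35313088-35313147), with 10 spots, read 6266, 8117 and 6140 in amiodarone pools, against 4997, 7316 and 6934 in vehicle pools, with a log2 difference of 0.23 (SE 0.14, adjusted p = 0.357). A_44_P187083 (chr12:35312813-35312872) stood at 0.19 (SE 0.14, adjusted p = 0.466). For both, the scaled groups did not overlap, yet neither passed. The Atp2a2 probes are shown because they part between heart and blood, as given further on.
Atp2a2 A_44_P187083: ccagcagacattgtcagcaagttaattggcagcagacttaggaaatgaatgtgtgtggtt
Atp2a2 A_44_P187080: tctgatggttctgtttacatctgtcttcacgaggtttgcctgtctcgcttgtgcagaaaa
Atp2a2 A_44_P282482: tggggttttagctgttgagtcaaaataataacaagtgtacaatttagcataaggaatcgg

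Pln encodes phospholamban, the pump's inhibitor. Its probe (chr20:32008012-32008071, plus strand) spans the start of translation, capitalised in its sequence.
Pln A_44_P226941: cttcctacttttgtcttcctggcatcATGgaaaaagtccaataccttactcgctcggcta
Pln read 42942, 60685 and 41310 in amiodarone pools, against 38326, 50202 and 41945 in vehicle pools. The scaled groups did not overlap. The log2 difference was 0.27 (SE 0.14, adjusted p = 0.269), and it passed in none of 18 settings.

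Slc8a1 encodes the sodium-calcium exchanger, whose signal on this array was low. A_44_P323285, with 10 spots, read 20.8, 39.5 and 29.4 in amiodarone pools, against 41.8, 50.9 and 40.6 in vehicle pools. All amiodarone pools were lower, at -0.48 (SE 0.18, adjusted p = 0.144). A_44_P290391 of the same gene stood at 0.08 (SE 0.26), and A_44_P330414 was not well above background on any array. Camk2d, the gene of the kinase that phosphorylates the release channel and phospholamban, had 1 probe. That probe was not well above background on any of the 12 arrays, so Camk2d was not tested.

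The spread of the pools set what could be seen. Over all genes in heart the median SE was 0.18 log2 units. For the brightest probes of the 9 genes, the 95% intervals reached no further than -1.23 and 1.13. Those of the other Trdn probes lay higher, 1.43 to 2.16 for A_44_P191715 and 0.76 to 2.17 for the dim A_44_P421525.

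Some markers of other cells passed in the same hearts. Beside their counts stand 4.23% of all features that were higher and 4.14% that were lower. Of 9 tested fibroblast markers, 5 fell and 0 rose, Col1a1 by 2.13 and Col3a1 by 2.31 log2 units, and the list's share of summed signal was 0.0519% to 0.0714% in amiodarone pools against 0.107% to 0.167% in vehicle pools. Of 7 red cell markers, 5 fell, and their share was 0.00498% to 0.00581% in amiodarone pools against 0.0284% to 0.0358% in vehicle pools. Of 8 macrophage markers, 3 rose. In other lists, 2 of 3 neutrophil markers rose, 2 of 5 smooth muscle markers fell, and 2 of 4 platelet markers rose and 1 fell. The 1 tested B cell marker fell, 1 of 10 endothelial markers fell and none of 3 T cell markers passed. None of 14 cardiomyocyte markers passed, with a median of 0.03 and a share of 3.96% to 4.21% in amiodarone pools against 4.05% to 4.66% in vehicle pools. In bulk RNA, fewer cells of a type and less RNA per cell cannot be told apart.

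The long triadin forms are known from skeletal muscle, so that list stands beside Trdn. Of 9 skeletal muscle markers, 3 could be tested: Acta1, a muscle actin that the heart also expresses, fell by 1.45 log2 units, Tnni2 stood at -0.31 and Ryr1 at -0.16. Acta1 alone passed, beside 4.14% of all features that were lower. The list's share was 0.00554% to 0.00705% in amiodarone pools against 0.0150% to 0.0218% in vehicle pools. The part of cell makeup in the triadin readings was not tested.

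Amiodarone pool 3 was the highest heart pool for 3 of 5 tested atrial markers, Sln, Myl7 and Nppa. Sln, which encodes the SERCA inhibitor sarcolipin, read 89.1, 193 and 7771 in amiodarone pools 1, 2 and 3, against 63.2, 285 and 58.1 in vehicle pools. Myl7, the atrial light chain gene, read 12190, 2308 and 77742 in amiodarone pools, against 15167, 32473 and 3716 in vehicle pools. Nppa, the gene of atrial natriuretic peptide, read 4077, 4583 and 30853 in amiodarone pools, against 687.8, 4980 and 2280 in vehicle pools. That pool did not stand apart for the other two, Myl4 and Nr2f2, and no atrial marker passed the test. Without that pool, Sln went to 0.43 (SE 0.56), 3 of 20 probes passed in place of 2, Casq2 being added, and the Trdn probe A_44_P191715 stood at 1.91. The share of all probes called was then 5.38%.

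The 6 lists of other calcium handling genes held 119 genes, of which 88 were tested in heart. They were chosen with earlier results of these data known. Of the 88, 1 rose and 7 fell, 9.09% in all beside 8.37% over all features, and their median was -0.10. The same 8.37% stands beside the count of each list below. Each of the 8 calls was lost in 5 to 12 of 17 other settings.

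Of 4 tested channel subunits outside the set, 2 fell and none rose. Cacnb3, another beta subunit gene, read 73.0, 118 and 83.8 in amiodarone pools against 130.5, 188 and 171 in vehicle pools, and fell by 0.72 log2 units (SE 0.13, adjusted p = 0.0186). Cacna1h, the pore of a T-type calcium channel, fell by 0.92 (SE 0.19, adjusted p = 0.0291). Among regulators of the L-type channel, Rem1, a small GTPase that inhibits it, read 38.1, 59.0 and 43.3 in amiodarone pools against 70.4, 119 and 89.8 in vehicle pools. Rem1 fell by 0.85 (SE 0.13, adjusted p = 0.0092) and kept its call in 12 of 17 other settings.

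Of 19 tested genes of the release site and its junction with the cell membrane, 2 fell and none rose. That was 10.5%, beside 8.37% of all features that passed either way. Bin1, which shapes the membrane tubules that carry the L-type channels, fell by 0.65 (SE 0.13, adjusted p = 0.0252). Speg, a muscle kinase of that junction, fell by 0.64 (SE 0.15, adjusted p = 0.0428). Of 32 kinases, phosphatases and anchors, 2 fell, Rem1 among them, and none rose, which was 6.25%.

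Of 7 other pumps and exchangers, 1 fell, the plasma membrane calcium pump gene Atp2b2 at -1.11 (SE 0.25, adjusted p = 0.0383). Sln, high in amiodarone pool 3, stood at 2.46 (SE 1.55, adjusted p = 0.368). None of 10 genes of store-operated and mitochondrial entry passed. The 2 with the smallest p were Trpc1, a cation channel gene, at 0.54 (adjusted p = 0.0877) and Stim1, the store's calcium sensor, at 0.38 (adjusted p = 0.121).

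Of 16 myofilament genes, 1 rose. Myh7, the slow myosin heavy chain, read 181309, 283698 and 240121 in amiodarone pools against 145388, 146560 and 146835 in vehicle pools, and rose by 0.79 (SE 0.19, adjusted p = 0.0472), a call kept in 5 of 17 other settings. Myh6, the fast heavy chain, stood at -0.00 (SE 0.20).

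**Figure D4:**
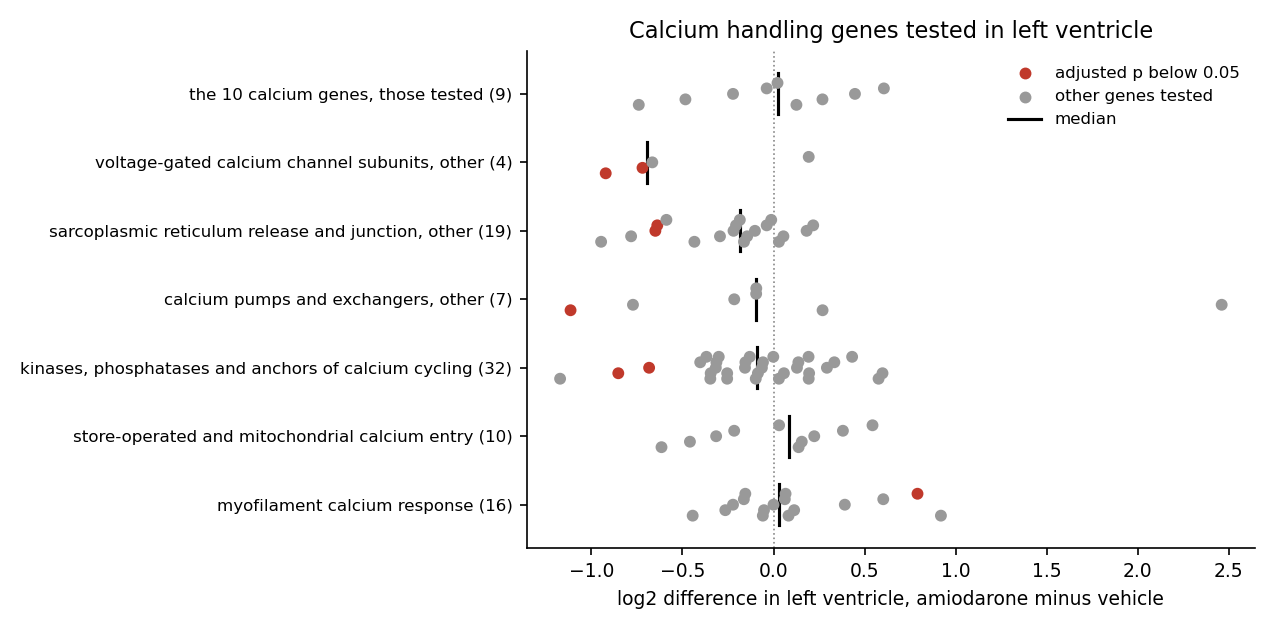
Log2 difference between amiodarone and vehicle left ventricle (x axis) of the tested genes of the set and of 6 lists of other calcium handling genes (y axis, number tested in brackets), 1 point per gene. Red points have adjusted p below 0.05 and black lines are medians. The 1 red point above zero is Myh7, and the point at 2.46 is Sln.

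The set was read in whole blood as a contrast. In vehicle animals, 8 of 9 tested genes were higher in heart than in blood, beside 45.7% of all 18831 features that were higher, 36.1% that were lower and 81.8% that differed either way. Only 1 of the 8, Atp2a2, was well above background on all vehicle blood arrays, and the other 7 entered the test through heart alone, where they are high, so the count itself is no support. Pln read 38326, 50202 and 41945 in vehicle hearts, against 14.1, 3.90 and 4.03 in vehicle blood, where 1 of 3 arrays was well above background. Against blood arrays that were not well above background, the fold is a lower limit. Trdn was at least 305-fold higher in heart, Ryr2 at least 124-fold, Cacna2d1 at least 99.4-fold, Cacnb2 at least 38.6-fold and Cacna1c at least 9.94-fold. The fit gave adjusted p of 1.40e-09 or less for the measured differences, which does not test these limits. The limits hold for the 75th percentile scaling: with normexp background correction the fitted folds were smaller for all 5, 107 for Trdn and 4.32 for Cacna1c. The offset of 50 in that correction is above the vehicle blood signals of these probes, which lowers such folds.

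Casq2 was measured on 2 of 3 vehicle blood arrays and was 168-fold higher in heart. For Atp2a2 the size hung on the probe. A_44_P187080, measured in both tissues, was 6.05-fold higher in heart, and A_44_P187083 was 6.09-fold higher. Before scaling, their mean signals were 6416 and 1283 in vehicle hearts against 180 and 36.5 in vehicle blood. The folds, that of Casq2 included, are relative to each array's 75th percentile. That percentile averaged 142.9 in vehicle hearts and 24.0 in vehicle blood. A_44_P282482 was at least 734-fold higher. Slc8a1 has no fold, since its probes in heart lay below the limit set by the blood arrays, and the fit of A_44_P290391 stood at -0.31 (SE 0.37, adjusted p = 0.451).

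Ryr2 also parted by probe. A_43_P16158 was well above background on all 3 vehicle arrays of both tissues. After scaling it was at 0.653-fold in heart relative to blood. The limma adjusted p was 0.0979 in the fit limited to probes measured on all arrays of both groups. Before scaling, its signal was higher in heart, with 124, 140 and 170 in vehicle hearts against 46.3, 34.7 and 32.7 in vehicle blood. The direction for this probe thus depended on the scaling. The different extraction kits and the tissues cannot be told apart.

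**Figure D5:**
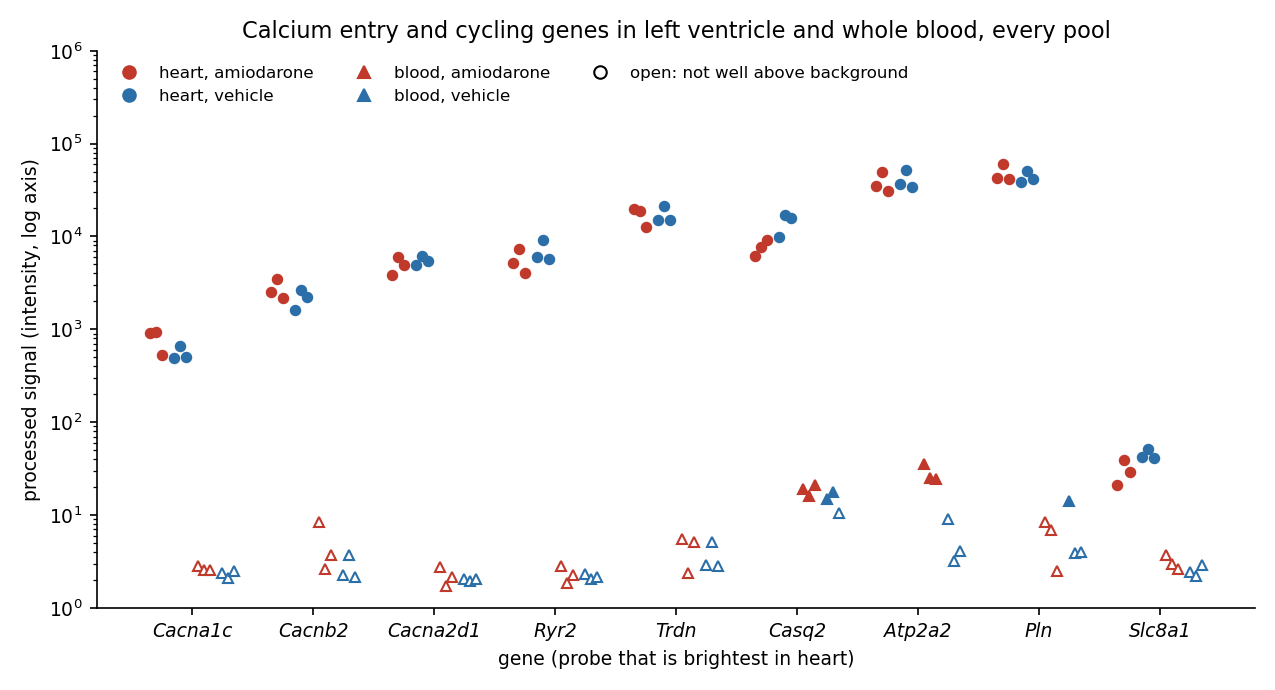
Processed signal (y axis, intensity on a log axis) of the probe brightest in heart for the 9 tested genes (x axis), 1 point per pool, with heart as circles and blood as triangles, amiodarone in red and vehicle in blue. Open symbols were not well above background. In vehicle blood, 2 arrays for Casq2 and 1 for Pln have filled symbols.

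Amiodarone against vehicle in blood gave a very broad difference, which stands beside every value of the set there. Of 15904 features, 67.3% passed, 40.2% higher and 27.1% lower, with a median of 0.44. The arrays themselves differed: their 75th percentile of signal averaged 73.8 ± 15.6 in amiodarone pools and 24.0 ± 2.80 in vehicle pools (SD, n = 3), and 20625 to 21245 of 43379 spots were well above background in amiodarone pools against 14459 to 15548 in vehicle pools. In heart these values were 130.4 ± 28.2 in amiodarone pools and 142.9 ± 30.9 in vehicle pools, with 21233 to 25032 spots over the 6 arrays. Only 3 of the 10 genes could be tested in blood, and all 3 passed. After scaling, their groups did not overlap, 1 higher and 2 lower, beside 73.6% of all features, 44.8% higher and 28.8% lower. Of their probes, 5 were tested and passed, 3 higher and 2 lower, 1 of the higher ones tested only through the amiodarone pools, beside 66% of all 18115 probes, 40.6% higher and 25.4% lower.

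Atp2a2 is expressed in many cell types. A_44_P187080 read 1299, 749.7 and 1431 in amiodarone blood, against 180.2, 148 and 210.4 in vehicle blood. It rose by 1.05 on the scaled log2 values (SE 0.20, adjusted p = 0.0038). A_44_P187083 also rose (adjusted p = 0.0037), with 408, 171 and 398 in amiodarone blood against 35.4, 25.3 and 48.7 in vehicle blood. A_44_P282482 read 35.2, 24.9 and 24.7 in amiodarone blood, against 9.15, 3.17 and 4.12 in vehicle blood, where no array was well above background, and has no fold, since its scaled amiodarone mean lay below the limit set by those arrays. The fit of the measured values gave adjusted p = 0.0479. Under normexp background correction, with its offset of 50, the Atp2a2 gene call was lost, at 0.82 (adjusted p = 0.162).

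Ryr2 was tested in blood on 1 of its 6 probes, A_43_P16158, the only one well above background there. That probe and the one brightest in heart are shown because they part in blood.
Ryr2 A_43_P16158: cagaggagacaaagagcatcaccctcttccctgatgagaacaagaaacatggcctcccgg
Ryr2 A_44_P435781: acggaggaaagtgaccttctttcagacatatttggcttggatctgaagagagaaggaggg
A_43_P16158 (chr17:69362896-69362955, plus strand) read 34.8, 42.3 and 28.3 in amiodarone blood, against 46.3, 34.7 and 32.7 in vehicle blood. These signals overlapped. After scaling it fell by 1.71 (SE 0.30, adjusted p = 0.0028), and without scaling the difference was -0.11 (adjusted p = 0.785).

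Casq2 read 19.0, 16.1 and 21.3 in amiodarone blood, against 14.9, 17.5 and 10.5 in vehicle blood. After scaling it fell by 1.19 (SE 0.28, adjusted p = 0.0081), and without scaling the difference turned to 0.41. The 18 probes of the set that were not tested in blood shifted by -1.81 to -0.86 in the fit with no filter, a range that holds both values. Neither Ryr2 nor Casq2 passed under normexp background correction. Its offset of 50 is above all blood signals of both probes, and the part of that offset in the lost calls was not tested.

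The difference between the tissues' responses was tested in 1 limma fit of the 12 arrays, for the 3 genes tested in both. Beside 51.1% of 13225 features, 2 of the 3 passed. The response of Atp2a2 (A_44_P187080) was lower in heart than in blood, at -0.82 (SE 0.23, adjusted p = 0.0123), and this call held in 20 of 21 other settings. For Ryr2 (A_43_P16158) the difference was 1.43 (SE 0.48, adjusted p = 0.0265). Its call was met in 14 of 22 settings, and its sign turned with no scaling, at -0.30. For Casq2 it was 0.45 (SE 0.36, adjusted p = 0.302).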

How the data were processed

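The labels assign 12 pools to 4 groups of 3. Per the file headers, Agilent Feature Extraction computed the deposited intensity of each spot, the processed signal, by background subtraction and multiplicative detrending of paired scans, with no normalization between arrays. The deposited value table holds the authors' normalized intensity on a linear scale, differing from the scanner values by a shift that varied between arrays. The series states that heart and blood were normalized separately. How the value table was made is not stated further in the labels or headers, and it served as an alternative. Its levels in heart and blood were thus not put on a common scale. Probes were named by accession (16336), symbol (3742) or synonym (1108) in the RefSeq gene table, and 19826 kept the file's name. All 23 probes of the set have 60 bases, read from the deposited files.

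Outlier spots were left out, log2 spot values averaged per probe, and each array's log2 75th percentile subtracted. Testing required a probe to be well above background in every pool of 1 or more groups. The probe with the highest mean signal over the arrays of a fit stood for its gene. Heart and blood had separate two-sided limma fits (limma 3.58.1, R 4.3.3), and the threshold was a p-value of 0.05 after Benjamini-Hochberg adjustment across everything tested. Differences between tissues came from a joint fit of all 12. Limits for unmeasured probes used the higher of the probe's value and the dimmest signal well above background on each array. The number of arrays limits the precision. The fitting step was tested on simulated data. Figures were drawn with matplotlib.

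Nothing says how many animals made a pool, so p-values measure the spread between these pools.

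For each gene of the set other than Ryr2, the result of every tested probe is given. Ryr2 probes that are not named are given as a range. From each pathway list the text names up to 4 genes past the threshold with the smallest p, or 2 as plain values, plus Sln, Myh6 and Myh7. The result of 1 gene that this rule names is not reported here. Up to 2 markers are named per list, except where a list had 3 tested genes and for the 5 atrial markers, named after their values were seen. The members and lists were chosen with earlier results of these data known. The ratios of probes and the values without amiodarone pool 3 alone were picked after the data were seen. Alternatives covered background, scaling, filter, probe choice, blocks and leaving out each pool. The normexp background correction added an offset of 50 to every signal, which draws log2 differences of dim signals toward zero.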

Additional observations from a re-analysis of the deposited data

Results flagged for a closer look

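The response to amiodarone differed between heart and blood for 2 of the 3 genes tested in both tissues, beside 51.1% of all 13225 features. With normexp background correction, which adds an offset of 50 to every signal, neither passed. Atp2a2, by probe A_44_P187080, was 0.23 higher in amiodarone than in vehicle hearts and 1.05 higher in amiodarone than in vehicle blood, a difference of -0.82 log2 units (limma adjusted p = 0.0123). Ryr2, by probe A_43_P16158, stood at -0.28 in hearts and -1.71 in blood, a difference of 1.43 (adjusted p = 0.0265). The Ryr2 call was met in 14 of 22 settings and turned to -0.30 with no scaling. The blood arrays of the 2 groups differed in their 75th percentile of signal, 73.8 ± 15.6 in amiodarone and 24.0 ± 2.80 in vehicle pools (SD, n = 3), and the part of this in both differences was not tested.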

How the results depend on the processing

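The count of heart features called, 1485, went to 747 with no scaling, 291 with no filter, 674 with replicate numbers as a block, 252 on the first array set alone, and 510 to 1309 without 1 pool. Genes of the set called in heart numbered 0, and 1 with normexp (Casq2), the mean of probes (Trdn) or the array set block (Casq2), and 0 to 1 without 1 pool. Probes called numbered 2, and 1 with no filter, the stricter filter, the replicate block or the first array set, and 1 to 3 without 1 pool. The 8 calls in the pathway lists became 3 with no scaling, 0 with no filter, 2 with the replicate block, 0 on the first array set and 0 to 6 without 1 pool. Under the replicate block the Trdn probe A_44_P421525 lost its call (adjusted p = 0.0539).

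Signs turned for Atp2a2 with normexp (-0.0056), quantile scaling (-0.10), no scaling (-0.11), the authors' value table (-0.089) and the first array set (-0.013), for Trdn with quantile scaling (-0.044) and no scaling (-0.0045), for Cacna2d1 with median scaling (0.057) and for Myh6 with median scaling (0.094). Without 1 pool the values were -0.096 to 0.11 for Atp2a2, -0.099 to 0.26 for Trdn, -0.12 to 0.048 for Cacna2d1 and -0.19 to 0.11 for Myh6. The cause was not tested.

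In blood, 10697 features passed, 1438 with normexp and 25211 with no filter. The normexp offset of 50 exceeded the mean 75th percentile of vehicle blood arrays, 24.0, and its part in the lower count was not tested. Of the set, 3 passed, 0 with normexp, 1 with no scaling, where Casq2 turned to 0.41, and 9 with no filter. The difference between tissues was called for 2 genes, 0 with normexp, 9 with no filter and 1 to 2 without 1 pool. With no filter, genes whose probes were not well above background in blood were tested as well. Vehicle heart against vehicle blood gave 8, and 1 with the stricter filter, under which only Atp2a2 and Ryr2 of the set could be tested. The share of calls that were higher was 50.5% in heart, 64.2% with median scaling and 30.4% with no scaling, and in blood 59.8%, 19.1% with normexp, 97.5% with no scaling, 47.1% with the value table and 25.9% with no filter. The median over all heart features was 0.02, 0.11 with median scaling and -0.11 with none, and in blood 0.44, 0.73, 2.04, and 0.19 with the value table. The tissue difference had 36.9% of its calls higher, 0.846% with no scaling and 50.6% with the value table, and vehicle heart against vehicle blood 55.9%, 83.9% with no scaling and 75.9% with the value table. Their medians were -0.43 and 0.38, and -0.63 and 0.94 with median scaling, -2.16 and 2.94 with no scaling, and -0.19 and 2.04 with the value table. Since the value table was normalized separately by tissue, its values for vehicle heart against vehicle blood are no check of that contrast. The replicate block gave 10845 features and 3 genes of the set in blood, and 2 for the tissue difference. Deviations of same-numbered pools correlated at -0.17, -0.24 and 0.32 in heart and 0.083, 0.17 and 0.31 in blood. In heart pools 1 and 2 correlated better with another number. In blood each amiodarone pool correlated best with its own number, and vehicle pool 1 did not. Pools 1 and 2 of both groups shared a slide and pools 3 another, and its part in these values was not tested. The numbers were not taken as pairs.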
